A study of Mus musculus with 6 samples.

Results

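Levels of 10 macrophage genes were followed in the sciatic nerve of mice at postnatal day 4 (P4). The members are Adgre1, Csf1r, Cd68, Mrc1, Cd163, Lyve1, F13a1, Cd14, Fcgr1 and Mertk, chosen by name, and the symbol column of the gene table gave 1 row for each of them. These 10 genes stand among 59485 genes in the table. The 6 libraries came from 6 animals, 1 library per animal, 3 labelled control and 3 labelled mutant. The mutants carried Ht-PA-Cre, a Cre recombinase whose transgene uses the promoter of human tissue plasminogen and acts in neural crest (NC) cells, together with 2 floxed Adar1 alleles (Adar1fl/fl) and the YFP tracer R26R. The labels call the controls wild-type. The methods define wild-type as animals without Cre that carry 1 or 2 floxed alleles and R26R, so floxed alleles and the tracer can be present in both groups. The study also counts Cre carriers with 1 floxed allele as controls in places, and the labels do not say more on these 3 animals. No cell type was sorted, so each value sums over all cells of a nerve, and fewer cells of a type cannot be told apart from less RNA per cell.

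Macrophages are phagocytes that come from blood-forming precursors and not from the NC. In peripheral nerve they lie among the Schwann cells and fibroblasts, clear debris and dying cells, and depend for survival on the growth factor receptor encoded by Csf1r. Some genes of this group mark most macrophages (Adgre1, Cd68, Csf1r, Mertk), others are typical of tissue-resident scavenging macrophages (Mrc1, Cd163, Lyve1, F13a1), and Cd14 and Fcgr1 encode receptors for bacterial lipopolysaccharide and for IgG. None of these genes is used by macrophages alone. Monocytes share Cd14, Fcgr1 and F13a1, lymphatic endothelium has Lyve1, and Mertk is found in several cell types.

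Values are size-factor normalised reads, that is, the reads counted on a gene divided by 1 scaling factor per library. The libraries held 50938349 to 78250094 reads on genes, and 1 read was worth 0.727 to 1.27 units, so all 10 genes lay far above the limit of counting. Errors are SDs over 3 libraries. Changes are log2 fold changes of log2(value + 1), mutant-labelled minus control-labelled, with the standard error (SE) from limma. The threshold for a call was at least a 2-fold difference together with a p of 0.05 or less before adjustment, and adjusted p-values cover the 25802 genes tested. The targeted gene Adar (GSMG0024553) was higher, not lower, in the mutants: the control libraries had 1602, 2066 and 1133 normalised reads and the mutant libraries 11768, 9311 and 9773 (log2 fold change 2.72, SE 0.20, adjusted p = 4.1e-05). This goes against the deletion in the labels, and with 1 value per gene the floxed segment cannot be told from the rest of the transcript. For this reason the libraries are named by their labels, control-labelled or mutant-labelled, and so is every direction.

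The macrophage genes did not move as a block. Of the 10 members, all of which were tested, 1 was higher in the mutant-labelled libraries (Fcgr1), 5 were lower (Mrc1, F13a1, Cd163, Cd14 and Csf1r) and 4 did not pass the threshold (Adgre1, Cd68, Lyve1 and Mertk). Among all tested genes 13.9% were called higher and 10.4% lower. The same 6 members stayed below 0.05 after adjustment, where 19.0% of all tested genes were higher and 16.0% lower at any size of difference, and in the same 6 the values of the groups did not overlap, compared with 49.2% of all tested genes. The median log2 fold change of the members was -0.73, and that of all tested genes was 0.03. The 10 members summed to 10778 to 15363 normalised reads in the control-labelled libraries and to 5457 to 7087 in the mutant-labelled ones. Csf1r (control-labelled and mutant-labelled means of 4621 and 1977) and Mrc1 (3602 and 754) made most of this difference.

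**Figure D1:**
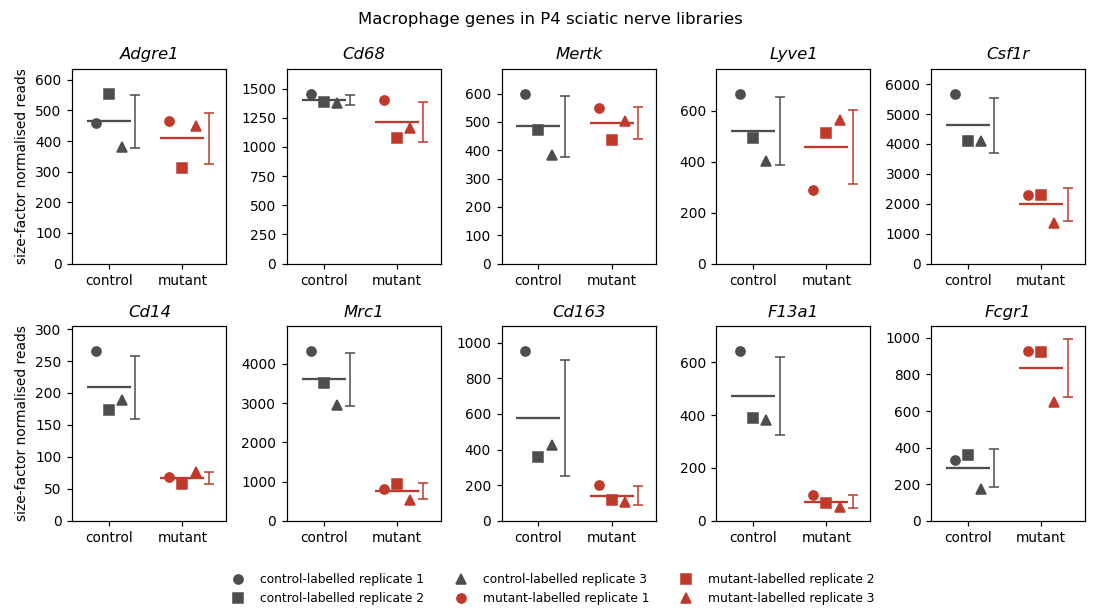
Size-factor normalised reads (linear axis from 0) of the 10 macrophage genes in each library, with control-labelled libraries in grey and mutant-labelled libraries in red; symbols mark the replicate, horizontal lines the mean and vertical bars 1 SD on either side (n = 3). Csf1r, Cd14, Mrc1, Cd163 and F13a1 lie lower in all 3 mutant-labelled libraries than in the control-labelled ones, Fcgr1 lies higher, and Adgre1, Cd68, Mertk and Lyve1 overlap.

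Of the 4 members that mark macrophages widely, Adgre1, Cd68 and Mertk had overlapping values, whereas Csf1r was lower. Adgre1 encodes F4/80, the surface receptor by which mouse macrophages are usually recognised (GSMG0016842, mm10 chromosome 17, 57358686 to 57483529, plus strand). It had 458, 554 and 381 normalised reads in the control-labelled libraries, given in the order of their replicate numbers as all values here, and 466, 313 and 448 in the mutant-labelled ones. The groups overlapped, the highest value came from a control-labelled library and the lowest from a mutant-labelled one, and the log2 fold change was -0.19 (SE 0.22, 95% confidence interval -0.69 to 0.32, adjusted p = 0.545). Cd68 encodes a glycoprotein of late endosomes and lysosomes (GSMG0006875, chromosome 11, 69664213 to 69666170, minus strand). Its values were 1454, 1386 and 1375 in the control-labelled libraries and 1405, 1073 and 1166 in the mutant-labelled ones. Mutant replicate 1 fell within the control range and the others lay below it, and the change was -0.22 (SE 0.13, interval -0.52 to 0.08, adjusted p = 0.228). For both genes the interval excludes a 2-fold difference in either direction.

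Mertk encodes a receptor tyrosine kinase with which macrophages take up dying cells (GSMG0021758, chromosome 2, 128698915 to 128803007, plus strand). It had 599, 472 and 383 normalised reads in the control-labelled libraries and 548, 437 and 504 in the mutant-labelled ones. All mutant-labelled values lay inside the control range, with a log2 fold change of 0.05 (SE 0.20, interval -0.41 to 0.51, adjusted p = 0.859). An unnamed gene overlaps Mertk on the same strand, with at most 51.1 normalised reads in a library. The relatives and ligands of MERTK differed among themselves. Axl, a sister receptor, was at 21123, 21391 and 17537 in the control-labelled libraries and 72598, 73302 and 78286 in the mutant-labelled ones (log2 fold change 1.91, SE 0.10, adjusted p = 8.54e-06). The rest of the list did not pass: Tyro3, the remaining receptor gene, had a log2 fold change of -0.11 (adjusted p = 0.563), and the bridging ligands Gas6 and Pros1, which link the receptors to phosphatidylserine on dying cells, had -0.04 (adjusted p = 0.876) and -0.25 (adjusted p = 0.253).

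Csf1r, the receptor through which CSF1 and IL-34 keep macrophages alive, was lower in the mutant-labelled libraries. The gene (GSMG0018463, chromosome 18, 61105571 to 61132149, plus strand) had 5671, 4085 and 4108 normalised reads in the control-labelled libraries and 2286, 2298 and 1347 in the mutant-labelled ones. Every mutant-labelled value lay below every control-labelled one, with means of 4621 ± 909 and 1977 ± 546 (SD, n = 3), and the log2 fold change was -1.25 (SE 0.22, interval -1.76 to -0.74, adjusted p = 0.00327). This call rests in part on mutant replicate 3, the lowest library: without it the change was -0.99 (unadjusted p = 0.000582), just under 2-fold. Hmgxb3 overlaps Csf1r on the opposite strand, with means of 681 and 743 in the control-labelled and mutant-labelled libraries, and whether the counting used strand is not given in the sources used here. Csf1, which encodes one of the ligands, was higher, with 1512, 1591 and 1097 normalised reads in the control-labelled libraries and 10452, 6464 and 8677 in the mutant-labelled ones (log2 fold change 2.60, SE 0.20, adjusted p = 4.47e-05). Il34, the other ligand, had means of 592 ± 55.7 and 661 ± 282, a change of 0.05 (SE 0.33, adjusted p = 0.927).

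Transcription factors of the macrophage lineage did not go the way of Csf1r. Of 7 factors listed, 6 were tested and 1 (Maf) was not analysed here. Of the 6, 3 were higher, none was lower and 3 did not pass the threshold. The shares over all tested genes were 13.9% higher and 10.4% lower. Nr1h3, which encodes the oxysterol receptor LXR alpha, rose from 122 ± 9.80 to 611 ± 133 (log2 fold change 2.29, adjusted p = 0.000129). Runx1 rose by 1.67 on the log2 scale (adjusted p = 0.00087). Spi1, which encodes the lineage factor PU.1, had 923, 1068 and 852 normalised reads in the control-labelled libraries and 1133, 1257 and 766 in the mutant-labelled ones (0.13, SE 0.20, adjusted p = 0.656).

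Of the 4 members typical of scavenging tissue macrophages, Mrc1, Cd163 and F13a1 had the lowest log2 fold changes of the 10 genes, whereas Lyve1 did not pass the threshold. Mrc1 encodes the mannose receptor CD206 (GSMG0020688, chromosome 2, 14229414 to 14332027, plus strand). It had 4324, 3518 and 2964 normalised reads in the control-labelled libraries and 796, 924 and 540.0 in the mutant-labelled ones, and no mutant-labelled value came near the control range. Means were 3602 ± 684 and 754 ± 196, and the log2 fold change was -2.27 (SE 0.22, interval -2.77 to -1.78, adjusted p = 0.000125). The microRNA gene Mir511 lies inside Mrc1 on the same strand and had at most 2.53 normalised reads in any library.

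F13a1 encodes the A chain of coagulation factor XIII, a transglutaminase that macrophages also make (GSMG0010552, chromosome 13, 36867178 to 37050244, minus strand). Its values were 642, 389 and 381 in the control-labelled libraries and 98.9, 66.6 and 52.4 in the mutant-labelled ones. The groups were far apart, with means of 471 ± 148 and 72.6 ± 23.8 and the lowest fold change of the 10 members, -2.69 (SE 0.32, interval -3.43 to -1.94, adjusted p = 0.000442).

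Cd163 encodes the scavenger receptor for haptoglobin-bound hemoglobin (GSMG0032457, chromosome 6, 124304651 to 124330527, plus strand). It had 953, 357 and 423 normalised reads in the control-labelled libraries and 200.03, 119 and 106 in the mutant-labelled ones. The groups did not overlap, but control replicate 1 stood above the other controls, and the log2 fold change of -1.94 had a wide interval (SE 0.40, interval -2.85 to -1.03, adjusted p = 0.00636). Without control replicate 1 the change was -1.51 and still past the threshold.

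Promoters of Mrc1 and F13a1, the members with the lowest fold changes, are shown with that of Fcgr1, the member that was higher. RefSeq gave promoters, 250 bases before to 50 after a transcript start on GRCm38.p6 (mm10), for 6 of the 10 members: Mrc1, F13a1, Fcgr1, Cd68, Cd163 and Mertk. Short motifs were searched on both strands: GAGGAA, a core bound by PU.1; TTCNNNGAA, the site of STAT dimers; and GAAANNGAAA, the interferon-stimulated response element. These motifs were chosen with the values known. Capitals mark the matches, and each sequence reads 5′ to 3′ on the strand of its gene.
Mrc1 promoter, chr2:14229164-14229463 (+): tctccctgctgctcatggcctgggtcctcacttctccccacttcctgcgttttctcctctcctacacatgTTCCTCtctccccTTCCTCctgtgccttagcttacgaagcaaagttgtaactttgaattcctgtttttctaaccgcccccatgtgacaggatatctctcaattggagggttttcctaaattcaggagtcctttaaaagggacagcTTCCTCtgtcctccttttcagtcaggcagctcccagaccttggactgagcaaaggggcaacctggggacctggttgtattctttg
F13a1 promoter, chr13:37050195-37050494 (-): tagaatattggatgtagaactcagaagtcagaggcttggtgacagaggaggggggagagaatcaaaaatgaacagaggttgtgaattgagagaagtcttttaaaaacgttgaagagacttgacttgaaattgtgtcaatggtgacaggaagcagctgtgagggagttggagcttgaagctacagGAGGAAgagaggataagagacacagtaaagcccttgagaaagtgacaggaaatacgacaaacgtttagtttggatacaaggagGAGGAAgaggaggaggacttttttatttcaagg
Fcgr1 promoter, chr3:96293920-96294219 (-): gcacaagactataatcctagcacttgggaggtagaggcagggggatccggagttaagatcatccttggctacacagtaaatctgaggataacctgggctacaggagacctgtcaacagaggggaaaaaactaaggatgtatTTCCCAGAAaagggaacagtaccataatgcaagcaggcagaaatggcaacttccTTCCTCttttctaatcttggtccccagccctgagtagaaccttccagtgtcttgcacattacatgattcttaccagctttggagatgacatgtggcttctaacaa
In the Mrc1 window GAGGAA occurred 3 times, each as its complement TTCCTC, 180, 167 and 35 bases before the start. The F13a1 window held GAGGAA 66 bases before and 17 bases after the start. RefSeq gives F13a1 a second start, with a window at chr13:37049164-37049463 that is not printed and held GAGGAA 14 bases after that start. The Fcgr1 window held GAGGAA once, as TTCCTC 55 bases before the start, and TTCCCAGAA, a match to TTCNNNGAA, 109 bases before it. Over 32851 promoters of the same length, GAGGAA occurred in 28.3%, TTCNNNGAA in 8.3% and GAAANNGAAA in 3.44%. Cd68 also held GAGGAA, and none of the 3 motifs was in the Cd163 or Mertk window. GAAANNGAAA was in none of the windows of the 6 members. A match is a run of letters and was not measured as a bound site.

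Other genes of scavenging tissue macrophages were then examined. Of 14 listed, 12 were tested. Of these, 6 were lower, 2 were higher and 4 did not pass, beside 10.4% lower and 13.9% higher among all tested genes. The median log2 fold change of the 12 was -1.40, against 0.03 over all tested genes. Mgl2, a C-type lectin gene, had 102, 75.6 and 92.5 normalised reads in the control-labelled libraries and 8.73, 0 and 8.90 in the mutant-labelled ones (-4.30, SE 0.92, adjusted p = 0.00744), and it entered the test only through the control-labelled libraries. Its neighbour in sequence Clec10a had a change of -1.80 (adjusted p = 0.0048), the chemokine gene Pf4 of -1.77 (adjusted p = 0.000104) and the scavenger receptor gene Stab1 of -1.46 (adjusted p = 0.000759). Mgl2 and Clec10a are similar in sequence, so reads could be shared between them. Siglec1, which encodes the sialic acid receptor CD169, and Msr1, which encodes the scavenger receptor SR-A, went the opposite way: Siglec1 had a change of 1.81 (adjusted p = 0.0158) and Msr1 of 1.19 (adjusted p = 0.0297).

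The genes that handle hemoglobin around CD163 were divided. Hp, which encodes the haptoglobin that CD163 binds, had 202, 45.4 and 73.5 normalised reads in the control-labelled libraries and 219.7, 2779.7 and 309.6 in the mutant-labelled ones. Mutant replicate 2 alone made most of the difference of the means, and the change of 2.70 (SE 0.92) passed only without adjustment (adjusted p = 0.0513). Hpx, which encodes the heme carrier hemopexin, rose by 1.75 (adjusted p = 0.0156), and the iron exporter gene Slc40a1 fell by 1.08 (adjusted p = 0.0286). Hmox1, encoding the enzyme that opens the heme ring, had means of 11212 ± 235 and 6912 ± 1237 with no overlap (-0.71, adjusted p = 0.00378), short of 2-fold. The hemopexin receptor gene Lrp1 had -0.31 (adjusted p = 0.0934). The 5 erythroid markers were all lower, beside 10.4% lower among all tested genes. These markers summed to 54904 to 76993 in the control-labelled libraries and 5110 to 15703 in the mutant-labelled ones. Their part in the Cd163 result was not tested.

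**Figure D2:**
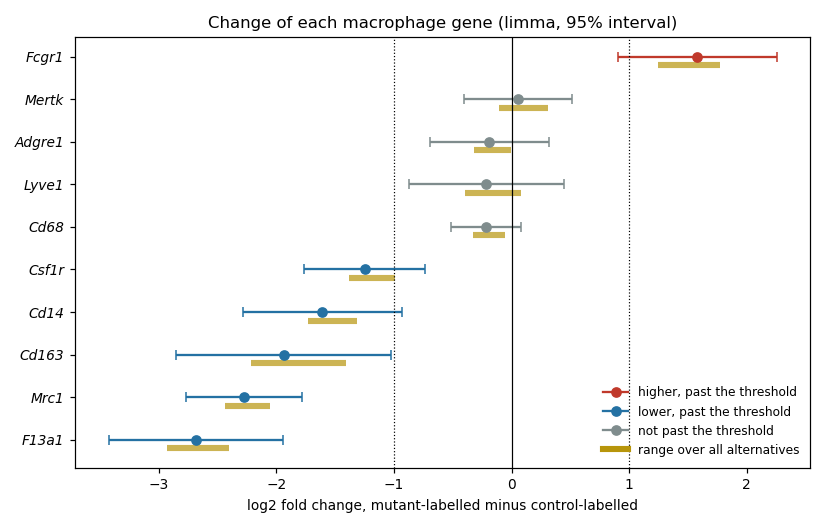
log2 fold change (mutant-labelled minus control-labelled) of each macrophage gene with its 95% interval from limma; colours give the call, dotted lines the 2-fold limit, and the ochre bars the range over 20 other settings and left-out libraries. F13a1, Mrc1, Cd163, Cd14 and Csf1r lie from -2.69 to -1.25, Fcgr1 lies at 1.58, and the intervals of the other 4 genes include 0.

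Cd14, the coreceptor that hands lipopolysaccharide to TLR4, was lower, while most of its partners were higher. Cd14 (GSMG0018859, chromosome 18, 36725067 to 36726815, minus strand) had 265, 173 and 189 normalised reads in the control-labelled libraries and 68.4, 56.9 and 76.2 in the mutant-labelled ones. No values overlapped, means were 209 ± 49.4 and 67.2 ± 9.67, and the log2 fold change was -1.61 (SE 0.29, interval -2.28 to -0.94, adjusted p = 0.00364). A gene of the protocadherin alpha and gamma clusters spans Cd14 on the opposite strand, with means of 30162 in the control-labelled and 22683 in the mutant-labelled libraries, so reads from that strand could enter the count if strand was not used.

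Of 7 partner genes of CD14, 4 were higher, 1 was lower and 2 did not pass. For comparison, 13.9% of all tested genes were higher and 10.4% lower. The median log2 fold change of the 7 partner genes was 1.63. Tlr4 itself had 688, 548 and 444 normalised reads in the control-labelled libraries and 1539.9, 1832 and 1765 in the mutant-labelled ones (1.63, SE 0.18, adjusted p = 0.000245). Tlr2, encoding a receptor for bacterial lipoproteins, rose by 1.93 (adjusted p = 0.000118), Lbp, encoding the serum protein that loads lipopolysaccharide onto CD14, by 1.85 (adjusted p = 0.000802), and the adaptor gene Myd88 by 1.79 (adjusted p = 1.77e-05). Ticam2, which encodes another adaptor at TLR4, passed only without adjustment (-1.06, adjusted p = 0.0683). The 2 that did not pass were higher without overlap, short of 2-fold. They were the adaptor gene Ticam1 (0.61, adjusted p = 0.032) and Ly96 (0.62, adjusted p = 0.022).

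Fcgr1 was the only one of the 10 members called higher. It encodes CD64, the high-affinity receptor for IgG, which interferon gamma is known to raise in macrophages and monocytes (GSMG0025766, chromosome 3, 96282909 to 96293971, minus strand). It had 333, 362 and 172 normalised reads in the control-labelled libraries and 927, 925 and 652 in the mutant-labelled ones. The groups did not overlap, means were 289 ± 102 and 835 ± 159, and the log2 fold change was 1.58 (SE 0.30, interval 0.90 to 2.26, adjusted p = 0.00406). Fcgr4, encoding another activating receptor, had 25.5, 106 and 24.1 normalised reads in the control-labelled libraries and 380.4, 294 and 386 in the mutant-labelled ones (3.09, SE 0.54, adjusted p = 0.00291). Fcer1g, the signalling chain they share, had means of 1851 ± 104 and 2956 ± 323 without overlap (0.67, adjusted p = 0.0024), short of 2-fold. The inhibitory receptor gene Fcgr2b (0.26, adjusted p = 0.452) and the low-affinity receptor gene Fcgr3 (-0.31, adjusted p = 0.346) did not pass the threshold. Of these 4 genes, 1 was called higher and none lower, beside 13.9% higher and 10.4% lower among all tested genes. Fcgr2b and Fcgr3 are alike in sequence, so their counts are uncertain.

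Some monocyte markers were higher beside Fcgr1. Of 6 listed, 3 were higher, none was lower and 3 did not pass the threshold, with overlapping values, beside 13.9% higher among all tested genes. Examples are Plac8 (372, 565 and 236 in the control-labelled libraries against 10074, 11825 and 13206 in the mutant-labelled ones) and Ly6c2 (means of 19.6 ± 6.73 and 395 ± 114). Their log2 fold changes were 4.98 and 4.28. Ly6c2 has close copies in the Ly6 family, so its count is uncertain. Ccr2, the chemokine receptor of classical monocytes, had means of 52.3 ± 29.7 and 82.0 ± 43.3 and overlapping values (0.69, adjusted p = 0.381). The monocyte list summed to 413 to 972 in the control-labelled libraries and 10912 to 14031 in the mutant-labelled ones, and Plac8 made up most of each mutant-labelled sum. Monocytes share Fcgr1 with macrophages, and their part in the Fcgr1 result was not tested. Which cells of the nerve gave the Plac8 and Ly6c2 reads was not tested either.

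Lyve1 encodes a hyaluronan receptor shared by some tissue macrophages and by lymphatic endothelium (GSMG0036523, chromosome 7, 110850603 to 110863059, minus strand). It had 665, 493 and 400.4 normalised reads in the control-labelled libraries and 290.2, 513 and 565 in the mutant-labelled ones. The groups overlapped, with a log2 fold change of -0.21 (SE 0.29, interval -0.88 to 0.45, adjusted p = 0.602). Among the mutant-labelled libraries, replicate 1 was the lowest in Lyve1, and it was also the lowest in the lymphatic genes Prox1, Flt4, Ccl21a and Mmrn1. Prox1, which encodes the transcription factor that defines lymphatic endothelium, had 564, 123 and 109 normalised reads in the control-labelled libraries and 160.0, 589 and 475 in the mutant-labelled ones. Control replicate 1 was the highest control-labelled library in Lyve1 and in these 4 genes. The other genes of the lymphatic list did not share this order: Reln had 5172, 5909 and 6396 normalised reads in the control-labelled libraries and 1333, 1605 and 949.5 in the mutant-labelled ones, so control replicate 1 was the lowest control and mutant replicate 3 the lowest mutant. Pdpn had 3054, 2843 and 2465 against 6417, 5860.5 and 6867, with mutant replicate 2 the lowest mutant.

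Across the lymphatic list, 4 of 6 genes were higher, 1 (Reln) was lower and 1 (Prox1) did not pass the threshold. For comparison, 13.9% of all tested genes were higher and 10.4% lower. With single libraries left out, 2 to 6 genes of this list passed in either direction. After adjustment Flt4, Pdpn and Reln remained at or below 0.05. Flt4, encoding the receptor for the lymphatic growth factor VEGFC, had 572, 353 and 322 against 526, 1219.6 and 819 (adjusted p = 0.0437), with overlap. Pdpn rose by 1.20 (adjusted p = 0.000119), whereas Ccl21a (adjusted p = 0.0683) and Mmrn1 (adjusted p = 0.0618) passed only without adjustment. Ccl21a has near-identical copies in the genome and its count is uncertain. Pdpn and Reln are also made by other cells of the nerve. Lymphatic endothelium and macrophages cannot be told apart as sources of Lyve1 reads, and the part of either in its values was not tested.

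**Figure D3:**
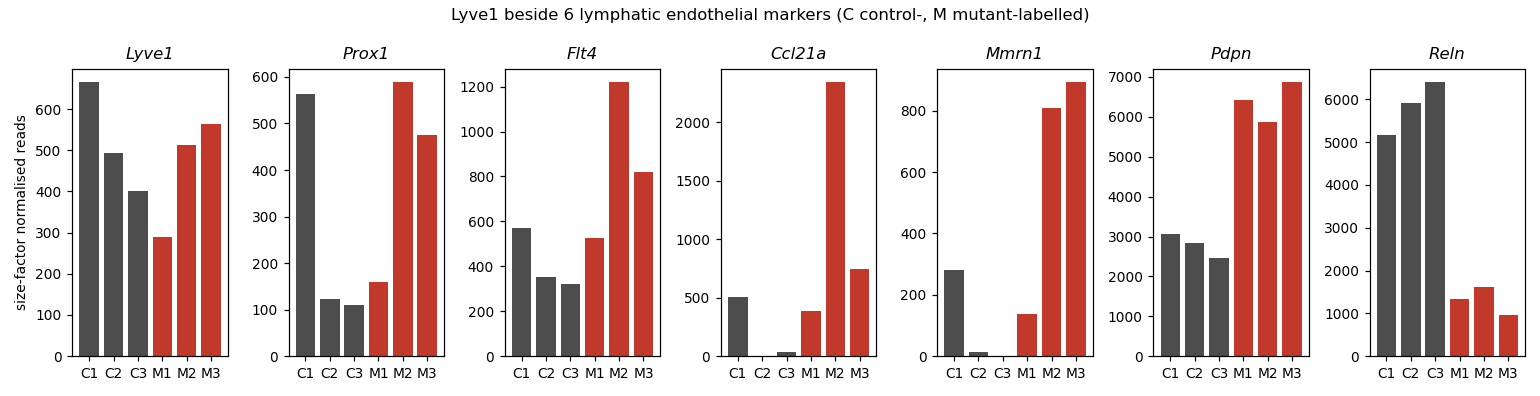
Size-factor normalised reads of Lyve1 and of the 6 genes of the lymphatic endothelial list in the 3 control-labelled (C1 to C3, grey) and 3 mutant-labelled libraries (M1 to M3, red), each panel on its own linear axis from 0. M1 is the lowest mutant-labelled bar and C1 the highest control-labelled bar in Lyve1, Prox1, Flt4, Ccl21a and Mmrn1, M2 is the lowest mutant-labelled bar in Pdpn, and in Reln C1 is the lowest control-labelled bar and M3 the lowest mutant-labelled one.

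Genes that make or bind hyaluronan, the ligand of LYVE1, were higher where they passed. Of 5 genes, 3 were higher and none was lower, beside 13.9% higher and 10.4% lower among all tested genes. The synthase gene Has1 had 15.5, 11.3 and 7.60 normalised reads in the control-labelled libraries and 389.9, 368 and 322 in the mutant-labelled ones (4.90, SE 0.38, adjusted p = 4.58e-05). Has2 rose by 1.82 (adjusted p = 0.000515), and the receptor gene Cd44 from 1359 ± 193 to 5448 ± 695 (adjusted p = 3.01e-05). Has3 had 0.94 (adjusted p = 0.0896) and Stab2, a hyaluronan scavenger receptor gene, had 1.20 (adjusted p = 0.208), both with overlapping values.

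The members were also set against Adgre1 within each library, as the log2 ratio of both values with 1 added, which depends little on how libraries were scaled. In all 6 members called by limma the ratios of the groups did not overlap. Relative to Adgre1, the mean log2 ratio differed by -2.50 for F13a1, -2.09 for Mrc1, -1.75 for Cd163, -1.42 for Cd14, -1.06 for Csf1r and 1.77 for Fcgr1. Each of these 6 reached the exact two-sided permutation p of 0.1, the smallest that 3 libraries against 3 allow (0.15 after adjustment over the 9 ratios), so the design cannot reach 0.05 here. Cd68 (-0.03, exact p = 0.8), Lyve1 (-0.03, exact p = 1) and Mertk (0.24, exact p = 0.3) overlapped with the control-labelled ratios. The gap between Csf1r ratios was narrow: control replicate 2 had a log2 ratio of 2.88 and mutant replicate 2 had 2.87.

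**Figure D4:**
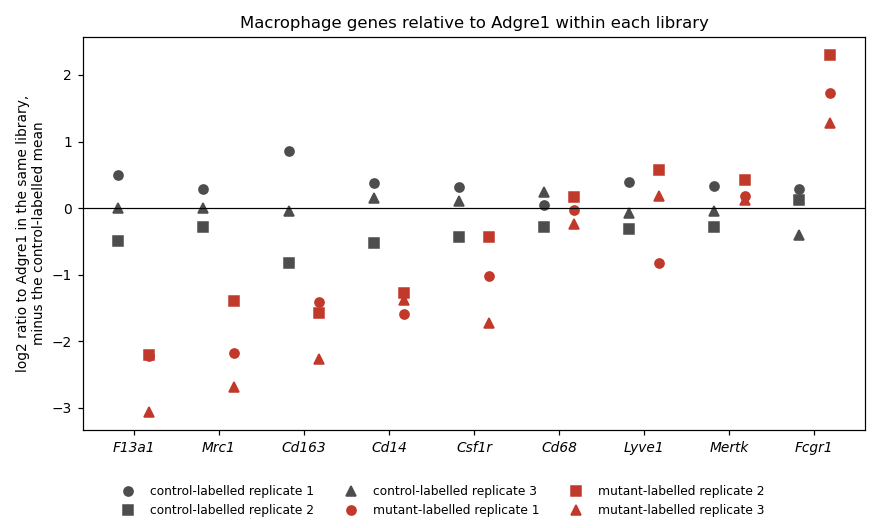
log2 ratio of each of 9 macrophage genes to Adgre1 in the same library, with the mean of the control-labelled libraries subtracted, so that 0 is the control-labelled mean; grey symbols are control-labelled and red symbols mutant-labelled libraries. The red symbols of F13a1, Mrc1, Cd163 and Cd14 lie well below the grey ones, those of Fcgr1 lie above, and the highest red symbol of Csf1r lies just under its lowest grey one.

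Other genes that macrophages widely express went both ways. Of 15, all tested, 3 were higher, 2 were lower and 10 did not pass the threshold, beside 13.9% higher and 10.4% lower among all tested genes, and the median log2 fold change was 0.22. Ptprc, which encodes the leukocyte antigen CD45, had 332, 377 and 245 normalised reads in the control-labelled libraries and 688, 993 and 710.2 in the mutant-labelled ones (1.33, SE 0.22, adjusted p = 0.00227). The cysteine protease gene Ctss rose by 1.32 (adjusted p = 8.26e-05) and Aif1, encoding the actin-binding protein IBA1, by 1.04 (adjusted p = 0.00633). Cx3cr1, the fractalkine receptor gene of resident macrophages, had 1424, 1343 and 1405 in the control-labelled libraries and 468, 522 and 244 in the mutant-labelled ones (-1.83, SE 0.26, adjusted p = 0.00112). The lysozyme gene Lyz2 fell by 1.30 (adjusted p = 0.00821). By adjusted p alone, 7 of the 15 were higher and 3 lower, beside 19.0% and 16.0% of all tested genes.

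Among genes induced in activated macrophages, 10 of 13 listed were tested. Of these, 7 were higher and none was lower, beside 13.9% higher and 10.4% lower among all tested genes. Of the 7, Acod1, Il12b and Il1b entered the test only through the mutant-labelled libraries and could only come out higher, and with a mean of at least 50 required the count was 5. Acod1, which encodes the enzyme that makes itaconate, had 6.66, 0 and 0 normalised reads in the control-labelled libraries and 475, 427 and 360.0 in the mutant-labelled ones (adjusted p = 0.000218). Cd80, a costimulatory ligand gene, had means of 23.9 ± 13.9 and 287 ± 76.0 (3.73, adjusted p = 0.00123). Il12b was at 0 in all 3 control-labelled libraries and at 17.5, 17.4 and 1.98 in the mutant-labelled ones. Il1b passed only without adjustment and its groups overlapped (adjusted p = 0.0954). Nos2, encoding inducible nitric oxide synthase, had overlapping values (-0.08, adjusted p = 0.895).

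**Figure D5:**
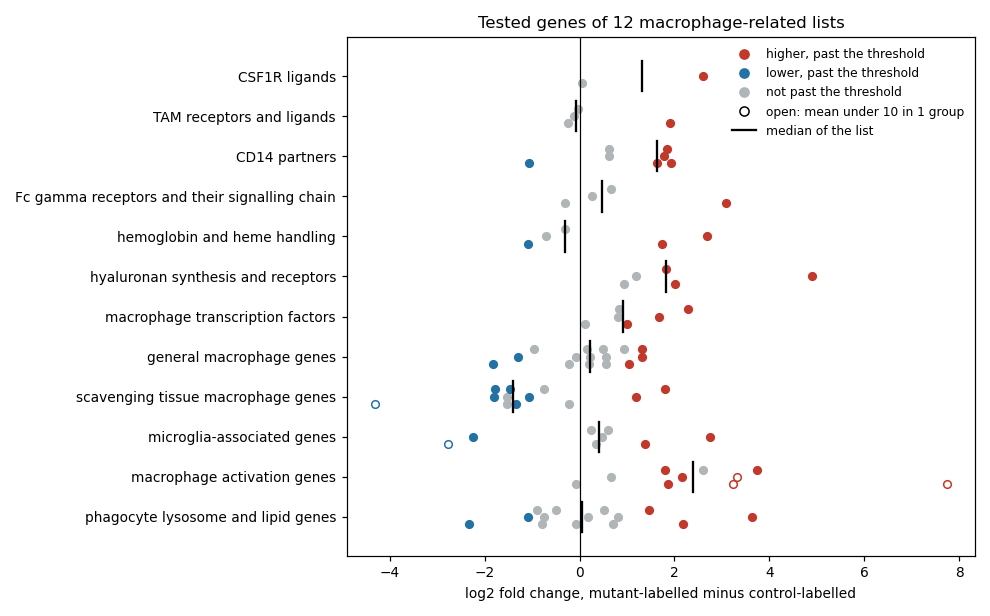
log2 fold change (mutant-labelled minus control-labelled) of every tested gene in 12 lists of macrophage-related genes; each point is a gene, coloured by call (red higher, blue lower, grey not past the threshold), open points are genes with a mean under 10 in 1 group, which entered the test through the other group only, and black bars are list medians. Scavenging tissue macrophage genes have 6 blue and 2 red points, with a median of -1.40. Macrophage activation genes have 7 red points, 3 of them open. Of all tested genes, 13.9% were called higher and 10.4% lower.

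By likeness, the members had different neighbours. For each member the genes were ranked by the root mean square difference between log2(value + 1) profiles over the 6 libraries, each centred on its own mean, among 13041 candidate genes. The nearest genes to Csf1r were Tmem255a, Fcna and Fam198a (differences of 0.11, 0.12 and 0.13), of which Fcna, encoding ficolin A, is on the scavenging list. The nearest to Mrc1 were Wbscr27, Mamdc2 and Gpr34 (0.13, 0.16 and 0.20), and those to Cd14 were Spag9, Rhobtb3 and Pf4 (0.13, 0.16 and 0.16). Cd163 had only distant neighbours in Ypel4, Frem1 and Clec10a (0.32, 0.32 and 0.34), and F13a1 in Col19a1, Lrrc75b and Cyp51 (0.25, 0.25 and 0.27). Fcgr1 was nearest to Atp8b4 (0.11), Adgre1 to Asah1 (0.03), Cd68 to Mon1b (0.02), Lyve1 to Trpv4 (0.11) and Mertk to Gabpa (0.07). The likeness of profiles over 6 libraries in 2 groups is a description.

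Markers of other cells varied between libraries beside these results. Control replicate 1 was the highest control-labelled library in the mast cell list (sums of 3339 to 11542 over the control-labelled libraries) and in 8 of the 10 members, Adgre1 and Fcgr1 being the exceptions. Skeletal muscle markers (6 of 7 higher) summed to 6419 to 32142 in the control-labelled libraries and 42590 to 311016 in the mutant-labelled ones, the highest sum being that of mutant replicate 3, which was also the lowest library in Csf1r, Mrc1, Cd163 and F13a1. Schwann cell markers (6 of 7 lower) summed to 54564 to 346191 in the mutant-labelled libraries and to at least 2557440 in the control-labelled ones. Of all tested genes, 13.9% were called higher and 10.4% lower. Adipocyte markers were highest in control replicate 1 and mutant replicate 2, and in a fit without these 2 libraries, chosen after seeing the data, the same 6 members passed the threshold in the same directions (Fcgr1 at 1.63, Csf1r at -1.22, Cd14 at -1.31, Cd163 at -1.41, Mrc1 at -2.30 and F13a1 at -2.40). The part of each of these markers in the results was not tested.

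Markers of other immune cells were counted as well, and their counts stand beside 13.9% higher and 10.4% lower among all tested genes. Of 8 tested T and NK cell markers 5 were higher, but 4 of these (Cd8a, Ncr1, Nkg7 and Klrk1) entered the test only through the mutant-labelled libraries and could only come out higher. Ncr1, a natural killer cell receptor gene, was at 0 in all control-labelled libraries and at 50.9, 75.3 and 37.6 in the mutant-labelled ones. Cd8a was at 0 in all control-labelled libraries and at 20.4, 19.3 and 5.93 in the mutant-labelled ones. Of the neutrophil markers 1 of 8 tested was higher (Csf3r, 13.3 ± 7.40 to 128 ± 37.6), of the dendritic cell markers 1 of 2 (Itgax, 40.9 ± 32.9 to 212 ± 5.09), and of the B cell markers none of 4 in either direction. Blood endothelial markers (6) and adipocyte markers (4) gave no call in either direction, mast cell markers gave 1 higher (Fcer1a, tested only through the mutant-labelled libraries) and 1 lower of 6, and fibroblast markers 2 lower of 5, Col1a1 and Col1a2, neither of which passed with libraries rescaled to the same total or without mutant replicate 3. Macrophages also express some of these, such as Itgax and Csf3r.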

How the data were processed

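Sciatic nerve RNA of 6 animals at P4 was sequenced by the authors as strand-oriented cDNA made from poly-A RNA. The authors mapped reads to mm10 with STAR 2.4.0, counted them on constitutive regions of FAST DB genes and divided them by DESeq2 size factors. The deposited signal is that quotient, 1 column per library. Its values were checked to be whole multiples of 1 read (100% within 0.05 of a read), and the recovered reads were used for edgeR and DESeq2 only. Groups and replicate numbers came from the sample titles.

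log2(value + 1) was fitted with limma (eBayes with trend) on genes with a mean of at least 10 in at least 1 group, 25802 of 59485, and p-values were adjusted by the Benjamini-Hochberg method over these. A threshold of p at or under 0.05 with at least 2-fold follows the methods of the study. Ratios to Adgre1 were compared by exact permutation. The 10 members, the 25 gene lists and the motifs were chosen with earlier results of these data known. Genes named are the members, up to 4 genes past the threshold of each list with the largest change, lists of at most 5 genes, the 3 genes most like each member (mean value of at least 100), and Adar; some others, such as Spi1, Prox1, Nos2 and Ccr2, were named after their values were seen. A few listed genes are not reported by name.

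Same-numbered libraries deviated from their group means with correlations of -0.06, -0.06 and 0.01, so the numbers were not treated as pairs. Alternatives were 13 settings and each library left out in turn. Library size and floors cover counting error only. Simulated counts were used to test the scripts. R 4.3.3, limma 3.58.1, edgeR 4.0.16, DESeq2 1.42.0, Python 3.11.15 and matplotlib 3.10.9 were used.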

Additional observations from a re-analysis of the deposited data

How the results depend on the processing

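The 6 members past the threshold kept their direction under all 20 alternatives (13 settings, 6 left-out libraries, and 1 added after seeing the data, without control replicate 1 and mutant replicate 2), and Mrc1, Cd163, F13a1, Cd14 and Fcgr1 stayed past the threshold in each. Csf1r stayed past it in 19, ranging from -1.38 to -0.99 with single libraries left out, and the number of lower members ranged from 4 to 5. Adgre1, Cd68, Lyve1 and Mertk never passed. Mertk changed sign to -0.014 with the same 75th percentile in each library, and with single libraries left out it ranged from -0.10 to 0.22. Lyve1 ranged from -0.40 to 0.083. The cause was not tested. Rescaling libraries to the same total moved the median log2 fold change of all genes from 0.03 to 0.20; relative to that median the members' differences were close to those given. With a replicate block 3560 genes were higher and 2589 lower, against 3580 and 2671, Csf1r had the same change of -1.25 (adjusted p = 0.00185), and the block changed no call of a member; the numbers share no animal. In the other gene lists, 49 counts under an alternative moved by more than 1.5 times and 451 did not, most often those of mast cell and lymphatic markers. With 3 animals per group, the 95% intervals of Lyve1 (-0.88 to 0.45) and Mertk (-0.41 to 0.51) leave smaller differences undetectable.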

Other observations

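Genes often used to tell microglia from other macrophages were examined in the nerve. Of 8 genes, 2 were higher, 2 were lower and 4 did not pass the threshold, beside 13.9% higher and 10.4% lower among all tested genes. Sall1, a transcription factor gene, had 13.3, 22.7 and 32.9 normalised reads in the control-labelled libraries and 176, 161 and 119 in the mutant-labelled ones (log2 fold change 2.74, adjusted p = 0.00181). Tmem119 had 2366 ± 267 and 6144 ± 422 (1.38, adjusted p = 5.79e-05). Gpr34, a lysophospholipid receptor gene, had 334, 238 and 203 against 45.8, 63.7 and 49.5 (-2.25, adjusted p = 0.000829). Siglech entered the test only through the control-labelled libraries and passed only without adjustment, with overlapping values (-2.76, adjusted p = 0.0944). Other cell types of the nerve can express Sall1 and Tmem119.

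Of 14 genes of phagocyte lysosomes and lipid handling, 3 were higher, 2 were lower and 9 did not pass the threshold, beside 13.9% higher and 10.4% lower among all tested genes. By adjusted p alone 5 were higher and 6 lower, beside 19.0% and 16.0%. Lgals3, which encodes galectin-3, rose from 358 ± 75.8 to 4440 ± 1050 (3.62, adjusted p = 1.11e-05), Spp1, encoding osteopontin, by 2.17 (adjusted p = 2.61e-05) and Gpnmb by 1.46 (adjusted p = 0.00797). The tetraspanin gene Cd9 fell by 2.32 (adjusted p = 2.24e-05) and Apoe, encoding a lipid carrier, by 1.08 (adjusted p = 0.000992). Schwann cells also express Cd9 and Apoe. The 14 genes summed to 292143 to 300281 in the control-labelled libraries and 174878 to 190211 in the mutant-labelled ones. Cd9 (control-labelled and mutant-labelled means of 106926 and 21760) made most of this difference, and the median log2 fold change of the 14 was 0.06.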
